A study of Homo sapiens with 8 samples.

Results

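The transcriptional response of RBM6-KO1 cells to ionizing radiation (IR) was measured by RNA-seq. MCF10A is a non-tumorigenic human mammary epithelial line, used here in its H-Ras-expressing form (MCF10A-Hras), and RBM6-KO1 is 1 clone of it, made with guide RNAs against exon 3 of RBM6, which encodes an RNA-binding protein. All libraries thus share the H-Ras transgene. The comparison took the 4 libraries of RBM6-KO1 cells, 2 of untreated cells and 2 of cells collected 12 h after 5 Gy of X-rays, out of the 8 libraries of the series. The other 4 libraries, of control cells with intact RBM6 under the same treatment and of untreated control cells, gave values for the comparison between genotypes. Of the 58233 genes in the count table, the 15598 that passed a filter on low counts in the 4 RBM6-KO1 libraries were tested. Only 1 clone was sequenced, so what belongs to the loss of RBM6 and what belongs to the clone cannot be told apart.

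After IR, DNA double-strand breaks activate the kinases ATM and ATR, which stabilise the transcription factor p53. Among the genes that p53 switches on, CDKN1A encodes p21, an inhibitor of cyclin-dependent kinases, and cells that hold p21 stop dividing. Genes for mitosis are transcribed late in the cell cycle and are repressed in arrested cells by the DREAM complex, which binds promoter elements called CHR. Levels are given as normalized CPM, read counts divided by the TMM-scaled library size, and differences as log2 fold changes of irradiated over untreated cells with their standard error (SE). Tests were made with edgeR's quasi-likelihood method and Benjamini-Hochberg adjustment over all genes tested, and a gene was called (rose or fell) at an adjusted p under 0.05 and a change of at least 2-fold.

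The libraries held 15355281 to 29832009 counts on genes over the series, and 15355281 to 20597570 in RBM6-KO1 cells. A count of 0 in a library allows up to 3 counts, a limit that covers counting error only. RBM6 mRNA (ENSG00000004534) stood at 61.6 and 62.9 CPM untreated, and 43.5 and 33.4 CPM after IR in RBM6-KO1 cells, against 67.7 and 69.5 untreated and 54.9 and 49.1 after IR in control cells, so mRNA counts do not check the knockout. Its decline with IR in RBM6-KO1 cells (log2 fold change -0.69, SE 0.17, adjusted p = 0.0498) was under the 2-fold limit. Of 18 epithelial markers 17 passed the filter, and LAMB3, a subunit of laminin-332, was among the most abundant at 5382 to 6628 CPM. Of the markers of other cell types, 3 of 9 for fibroblasts, 2 of 10 for leukocytes and 3 of 7 for endothelium passed, and none of these 8 was called.

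IR changed 485 of the 15598 genes tested in RBM6-KO1 cells, 3.11% of them. More genes fell than rose: 308 fell (1.97%) and 177 rose (1.13%). The falls were also deeper. The median log2 fold change was -1.52 among genes that fell and 1.29 among genes that rose, and 85 genes fell and 33 rose by at least 4-fold. The risen genes were nearly all protein-coding (162 of 177), whereas 182 of the fallen genes were protein-coding, 76 were lncRNAs and 34 were pseudogenes. That is 1.47% of the protein-coding genes tested, 5.10% of the lncRNAs and 2.40% of the pseudogenes. None of the 485 overlapped between groups, and 62.0% of all genes tested did not. The number called depended on single libraries, with 1199 genes without untreated replicate A, 300 without untreated replicate B, 1563 without IR replicate A and 289 without IR replicate B. When the null hypothesis was a change of up to 2-fold (glmTreat), 12 genes passed, of which GDF15, NECTIN4, CDKN1A, BTG2, PLK2, GASK1B, GREB1 and TREM2 rose and ASPM, CENPF, SGO2 and PIF1 fell.

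**Figure D1:**
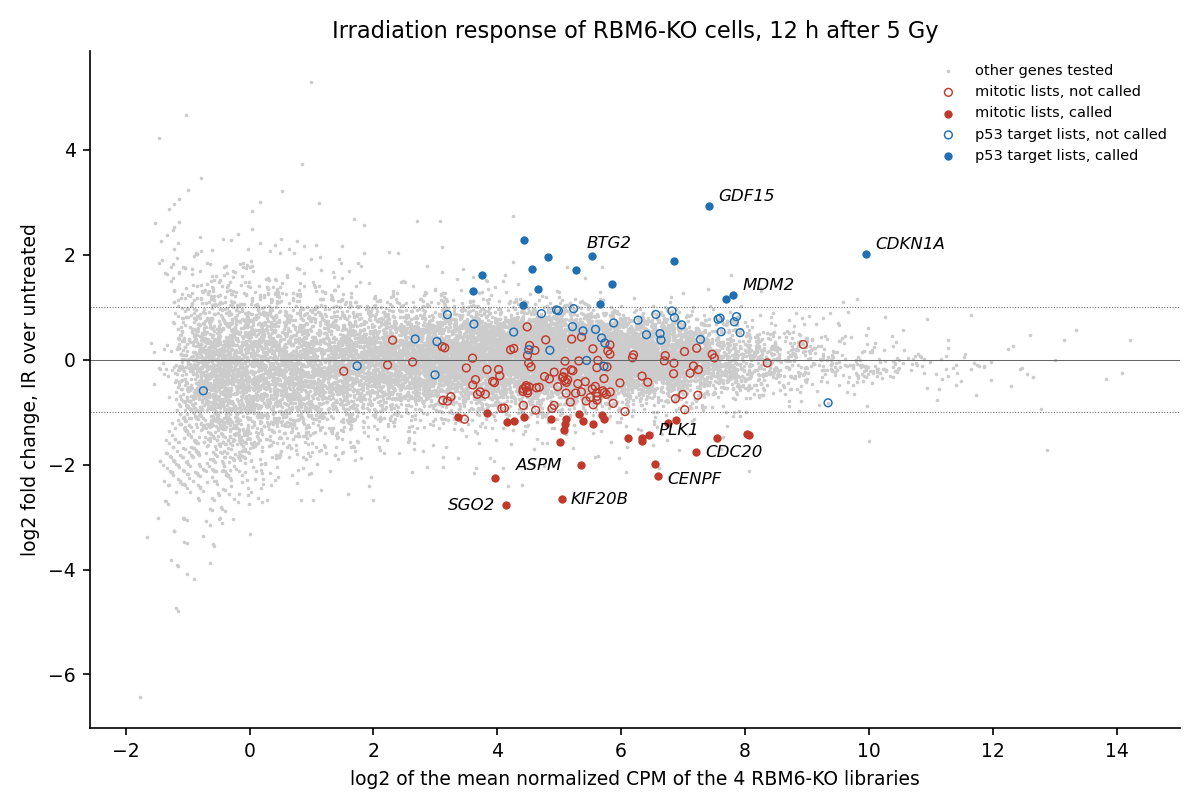
Each point is 1 of the genes tested in RBM6-KO1 cells, with the log2 of its mean normalized CPM on the x axis and its log2 fold change after IR on the y axis. Members of the p53 target lists (blue) and of the mitotic lists (red) are filled where called, and dotted lines mark a 2-fold change; GDF15 at 2.93 and CDKN1A at 2.02 lie highest among the abundant p53 targets and SGO2 at -2.77 lowest among mitotic genes.

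The p53 targets for cell cycle arrest and for feedback on p53 were higher after IR. Of 26 tested, 12 rose, none fell and 25 lay above 0, with a median log2 fold change of 0.91 against -0.01 over all genes tested. CDKN1A (GRCh38 chromosome 6, 36676460 to 36687337) had 403 and 381 CPM untreated, and 1590 and 1588 CPM after IR. Both irradiated libraries lay far above both untreated ones, and the replicates nearly coincided (log2 fold change 2.02, SE 0.14, adjusted p = 0.00051). GDF15, which encodes a secreted stress cytokine, had 40.4 and 39.1 CPM untreated, and 307 and 298 CPM after IR (log2 fold change 2.93, SE 0.15, adjusted p = 7.75e-05). It had the smallest p-value of all genes tested. BTG2, an antiproliferative cofactor of mRNA deadenylation, rose from 20.3 and 17.1 CPM to 72.1 and 76.2 (log2 fold change 1.98, SE 0.17, adjusted p = 0.00151). PLK2, a Polo-like kinase, rose from 6.87 and 7.92 CPM to 30.9 and 40.9 (log2 fold change 2.28, adjusted p = 0.0022), and TRIM22, a ubiquitin ligase, from 11.7 and 11.3 CPM to 39.6 and 49.8 (log2 fold change 1.96, adjusted p = 0.0022). For BTG2, PLK2 and TRIM22 the groups were well apart.

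Negative regulators of p53 itself were among the risen genes. MDM2, the ubiquitin ligase that destroys p53, had 137 and 132 CPM untreated, and 317 and 314 CPM after IR (log2 fold change 1.23, SE 0.14, adjusted p = 0.00502). PPM1D, the phosphatase WIP1 that removes the phosphate groups set by ATM, rose from 7.33 and 6.70 CPM to 14.9 and 19.9 (log2 fold change 1.31, adjusted p = 0.0189). Cyclin G1 (CCNG1), which acts with MDM2, rose from 137 and 118 CPM to 241 and 329 (log2 fold change 1.16, adjusted p = 0.0153). The other risen members were TP53INP1 (log2 fold change 1.62), SPATA18 (1.73), SESN1 (1.36) and SUSD6 (1.07). PPM1D, CCNG1, TP53INP1, SESN1 and SUSD6 were chosen for naming after their values were seen. Only SFN stood below 0 in this list. SFN (14-3-3 sigma), which holds cyclin B1-CDK1 in the cytoplasm and was the most abundant member beside CDKN1A, had 701 and 957 CPM untreated, and 536 and 402 CPM after IR (log2 fold change -0.82, adjusted p = 0.0456). It was under the 2-fold limit, and passed it at -1.02 without untreated replicate A and without IR replicate A.

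Among p53 targets for DNA repair and nucleotide supply, 3 of 9 tested rose and 8 lay above 0, with a median of 0.93 (5 rose without IR replicate A). RRM2B, the p53-inducible subunit of ribonucleotide reductase, had 52.9 and 45.8 CPM untreated, and 147 and 215 CPM after IR (log2 fold change 1.88, SE 0.20, adjusted p = 0.00344). The list also counts FDXR, a mitochondrial reductase, which its name does not describe. FDXR rose from 25.5 and 36.5 CPM to 95.2 and 72.8 (log2 fold change 1.44, adjusted p = 0.0128). XPC, which recognises bulky lesions for nucleotide excision repair, rose from 14.2 and 13.6 CPM to 24.7 and 33 (log2 fold change 1.052, adjusted p = 0.0269), and its log2 fold change was 0.84 without IR replicate B. ASCC3, a helicase in the repair of alkylated DNA, was just under the limit at 0.93 and passed it without untreated replicate A (1.09) and without IR replicate A (1.17).

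The p53 targets for apoptosis had the lowest median of the 3 lists. Only 1 of 19 tested rose, and the median was 0.39, with 15 members above 0. That gene was TNFSF9, the ligand of a co-stimulatory receptor of T cells, with 18 and 18.2 CPM untreated, and 60.6 and 57.5 CPM after IR (log2 fold change 1.71, SE 0.16, adjusted p = 0.0022). The most abundant members were TNFRSF10B, a TRAIL death receptor, and PERP, a desmosomal protein, with log2 fold changes of 0.82 and 0.72, under the 2-fold limit. The pore-forming protein BAX had 123 and 146 CPM untreated, and 195 and 157 CPM after IR (log2 fold change 0.39, adjusted p = 0.161), and the BH3-only protein BBC3 (PUMA) had a log2 fold change of 0.68 (adjusted p = 0.104). BAX and BBC3 were chosen for naming after their values were seen. In this list 3 members were called without untreated replicate A or without IR replicate A. Over the 3 p53 lists, 16 of 54 tested members rose and none fell, and 13 to 21 rose when a library was left out.

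**Figure D2:**
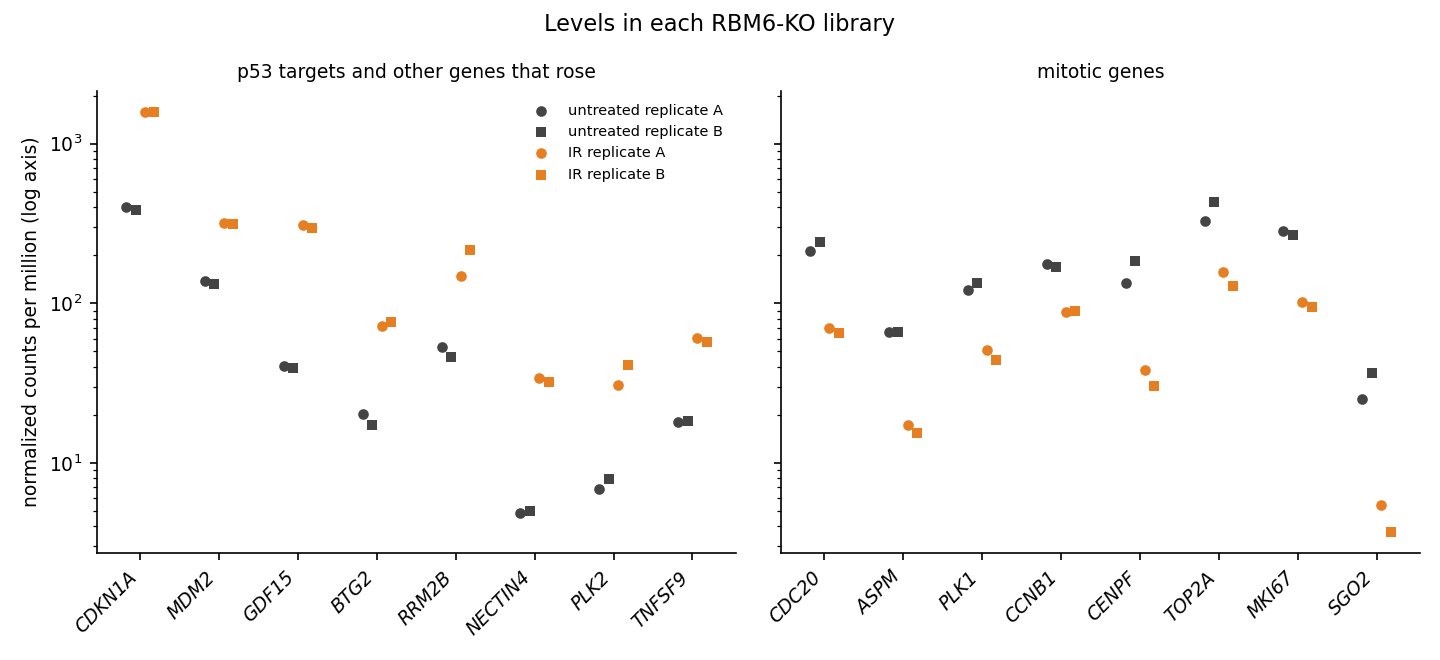
Normalized CPM on a log axis in each of the 4 RBM6-KO1 libraries, untreated in grey and after IR in orange, with circles for replicate A and squares for replicate B. The left panel shows 8 genes that rose, led by CDKN1A at 403 and 381 untreated and 1590 and 1588 after IR; the right panel shows 8 mitotic genes, all lower in both irradiated libraries.

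Genes outside the p53 lists reached changes of similar size. These lists do not hold every p53 target, so a place outside them does not set a gene apart from p53. NECTIN4, an epithelial adhesion molecule, had 4.85 and 5.01 CPM untreated, and 33.9 and 32.1 CPM after IR (log2 fold change 2.74, SE 0.20, adjusted p = 0.00051). The Golgi kinase-like protein GASK1B rose from 2.25 and 2.37 CPM to 11.9 and 17.1 (log2 fold change 2.65, adjusted p = 0.0028), and GREB1, known as an oestrogen-induced gene, from 1.86 and 1.69 CPM to 9.29 and 13.1 (log2 fold change 2.65, adjusted p = 0.00344). CYFIP2, a subunit of the WAVE actin regulator, rose from 14 and 17.8 CPM to 49.4 and 59.3 (log2 fold change 1.77, adjusted p = 0.00352). Secreted regulators were represented by DKK1, an inhibitor of WNT signalling, at 117 and 99.7 CPM untreated, and 274 and 384 CPM after IR (log2 fold change 1.61, adjusted p = 0.00549), and by SERPINE2, a protease inhibitor, at 20.7 and 22.4 CPM untreated, and 56.5 and 70.6 CPM after IR (log2 fold change 1.56, adjusted p = 0.00452). Both genes were higher in each irradiated library than in either untreated one. Some large ratios rested on few reads. TREM2, a receptor of the immunoglobulin family, had 3 and 0 counts untreated and 88 and 68 after IR, a ratio of counts per library size of 42.4 with an exact 95% interval of 14.3 to 208.0 for counting error. LY6D, a surface protein of stratified epithelium, had 4 counts in each untreated library and 77 and 57 after IR (log2 fold change 3.72, adjusted p = 0.00753). The most abundant risen genes after CDKN1A included CXCL8, TGFBR2, CD46 and GM2A. TGFBR2, a receptor of TGF-beta, rose from 212 and 129 CPM to 345 and 532 (log2 fold change 1.36, adjusted p = 0.0261) and CD46, a complement regulator, from 210 and 143 CPM to 361 and 511 (log2 fold change 1.31, adjusted p = 0.0187). GM2A, a cofactor of ganglioside breakdown, sat at the 2-fold limit (1.02) and lost its call without untreated replicate A (0.97), without IR replicate B (0.98) and with upper-quartile scaling (0.98).

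Genes of mitosis were lower after IR. Over 6 lists (entry into mitosis, spindle checkpoint, kinetochore, spindle, cytokinesis and chromosome structure), 31 of 143 tested members fell and none rose, against 1.97% of all genes tested. In all, 118 of the 143 lay below 0, and the median log2 fold change was -0.53. Leaving out any 1 library left 28 to 34 called. In bulk RNA, fewer cells in mitosis and less mitotic mRNA per cell cannot be told apart. CDC20 (GRCh38 chromosome 1, 43358981 to 43363203), the activator of the anaphase-promoting complex, had 214 and 242 CPM untreated, and 69.8 and 65.1 CPM after IR (log2 fold change -1.76, SE 0.15, adjusted p = 0.00154). ASPM (GRCh38 chromosome 1, 197084121 to 197146694), which organises spindle poles, had 65.6 and 65.5 CPM untreated, and 17.2 and 15.4 CPM after IR (log2 fold change -2.01, SE 0.17, adjusted p = 0.00138). In both genes each irradiated library lay far below each untreated one, with replicates close together.

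Kinases and cyclins of mitotic entry had a median of -0.63, with 17 of 18 below 0 and 3 called. PLK1, the Polo-like kinase of mitosis, fell from 121 and 133 CPM to 50.7 and 43.9 (log2 fold change -1.43, SE 0.16, adjusted p = 0.00373). AURKB, the kinase of the chromosomal passenger complex, fell from 57.9 and 72.4 CPM to 32.3 and 23.4 (log2 fold change -1.23, adjusted p = 0.0168), a change that was just under 2-fold without IR replicate B. Cyclin B2 (CCNB2) fell from 71.2 and 73.5 CPM to 31.8 and 34.7 (log2 fold change -1.12, adjusted p = 0.00952). Cyclin B1 (CCNB1) had 176 and 169 CPM untreated, and 87.7 and 90 CPM after IR; the groups did not overlap, but the change was just under the 2-fold limit (log2 fold change -0.95, adjusted p = 0.0141). The kinase AURKA (-0.83) and the transcription factor MYBL2 (-0.74) were also under it, and the transcription factor FOXM1 (log2 fold change -0.59, adjusted p = 0.0522) did not pass the test. The list was not uniform. CDK1, the catalytic partner of cyclin B, had 73.9 and 68.4 CPM untreated, and 69.7 and 82.1 CPM after IR (log2 fold change 0.09, adjusted p = 0.717), and cyclin A2 (CCNA2) had 55.5 and 47.2 CPM untreated, and 42.7 and 49.8 CPM after IR (log2 fold change -0.15, adjusted p = 0.57). In CDK1 and CCNA2 the groups overlapped. These 2 genes, AURKA, MYBL2 and FOXM1 were named after their values were seen. CDC25B, a phosphatase that activates CDK1 and the most abundant member, stood at -0.06.

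In the spindle checkpoint and anaphase-promoting complex list 4 of 28 fell, with a median of -0.33 that was -0.20 without untreated replicate A. SGO2, which protects centromeric cohesin, had the deepest fall of all mitotic genes, from 25.1 and 36.8 CPM to 5.41 and 3.67 (log2 fold change -2.77, SE 0.27, adjusted p = 0.0022). Besides CDC20, the chain-elongating enzyme UBE2S fell from 366 and 418 CPM to 155 and 136 (log2 fold change -1.43, adjusted p = 0.00352) and securin (PTTG1), the inhibitor of separase, from 150 and 177 CPM to 77.9 and 68.9 (log2 fold change -1.15, adjusted p = 0.00952). The checkpoint kinases BUB1 (-0.51) and TTK (-0.32), named after their values were seen, did not pass the test, and BUB3, the most abundant member, stood at 0.22.

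Centromere and kinetochore genes had a median of -0.62, and 7 of 36 fell. CENPF fell from 134 and 185 CPM to 38 and 30.3 (log2 fold change -2.22, SE 0.20, adjusted p = 0.00192) and the kinetochore motor CENPE from 19.6 and 32.2 CPM to 7.81 and 2.99 (log2 fold change -2.26, adjusted p = 0.0195). Survivin (BIRC5), a partner of AURKB, fell from 107 and 131 CPM to 46.7 and 37.4 (log2 fold change -1.501, adjusted p = 0.00549). Smaller falls were seen in NDC80 (-1.19) and NUF2 (-1.14), which form the microtubule-binding complex of the kinetochore, and in CENPA (-1.02), the histone of centromeric nucleosomes. The DNA-binding centromere protein CENPB did not pass (log2 fold change -0.68, adjusted p = 0.0522).

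The spindle and centrosome list had the lowest median of the 6, -0.78, with 12 of 32 tested members called, all of them lower. The kinesin KIF20B fell from 38.3 and 75.1 CPM to 10.8 and 7.14 (log2 fold change -2.66, SE 0.32, adjusted p = 0.00633), and KIF14 from 51.5 and 45.5 CPM to 19.1 and 13.4 (log2 fold change -1.58, adjusted p = 0.0079). KIF18B, which shortens astral microtubules, fell from 50.5 and 46.5 CPM to 20.3 and 18.2 (log2 fold change -1.33, adjusted p = 0.0075). The untreated replicates of KIF20B lay well apart, whereas those of KIF18B were close. TACC3, a spindle stabiliser, fell from 133 and 170 CPM to 70.6 and 60.2 (log2 fold change -1.21, adjusted p = 0.0117), and the depolymerase KIF2C from 68.6 and 71 CPM to 33 and 34.5 (log2 fold change -1.048, adjusted p = 0.0125), which was just under 2-fold without IR replicate A. The 6 called members left (HMMR, KIF20A, GTSE1, KIF15, PSRC1 and DLGAP5) had log2 fold changes from -1.22 to -1.04. None of the 10 cytokinesis genes was called (median -0.33), with RHOA at 0.29.

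In the chromosome structure list 5 of 19 fell, although the median was only -0.21. That median ran from -0.06 without untreated replicate A to -0.37 without IR replicate B. The proliferation marker MKI67, a coat protein of mitotic chromosomes, fell from 284 and 269 CPM to 102 and 94.8 (log2 fold change -1.495, SE 0.15, adjusted p = 0.0022). TOP2A, which untangles sister chromatids, fell from 328 and 429 CPM to 157 and 128 (log2 fold change -1.41, adjusted p = 0.0075). The condensin ATPases SMC4 (-1.98) and SMC2 (-1.497) and the cohesin ATPase SMC3 (-1.54) fell, while the other cohesin subunits SMC1A (0.08) and RAD21 (0.10) and the condensin subunit NCAPD2 (-0.19), named after their values were seen, did not. Subunits of 1 complex were therefore called or not called one by one. The transcripts of SMC4, SMC2 and SMC3 hold 36.2%, 34.0% and 33.8% adenine (A), a property taken up below. Those of SMC1A, RAD21 and NCAPD2 hold 29.0%, 31.2% and 25.8%. The part of composition in this split was not tested. Outside the lists, PIF1, a DNA helicase, fell from 27.1 and 33.4 CPM to 6.94 and 4.44 (log2 fold change -2.41, adjusted p = 0.003), and SAPCD2, a regulator of spindle orientation, from 16.3 and 16.3 CPM to 4.54 and 4.34 (log2 fold change -1.87, adjusted p = 0.00373). TROAP, a spindle-associated protein, fell from 49.1 and 51.2 CPM to 20 and 17.6 (log2 fold change -1.42, adjusted p = 0.00549).

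Many promoters of the mitotic genes held the elements through which late cell cycle genes are controlled. CHR elements (searched as TTTGAA or TTCGAA on both strands) are bound by the DREAM and MuvB complexes, and CCAAT boxes (searched as CCAAT on both strands, where a match can share an end base with a CHR) by NF-Y. RefSeq promoter windows of 300 bases (250 before and 50 from the transcription start, GRCh38.p14) were matched by symbol for 10719 of the tested genes and for 123 of the mitotic genes. Only the first listed window of each symbol was searched. Whether it holds the start site used in these cells was not tested, so a missing match covers that window alone. A CHR lay in 58.5% of the mitotic windows and in 11.3% of all windows. A CCAAT box lay in 66.7% and 36.5%, and both in 42.3% and 4.72%. Of the 29 fallen mitotic genes with a window, 72.4% held a CHR, compared with 54.3% of the 94 that were not called. The median log2 fold change was -0.61 for mitotic genes with a CHR and -0.26 for those without. Many of these matches lay past the start site. In the part of the window before it, a CHR lay in 39.0% of the mitotic windows and 9.77% of all windows, and in 48.3% of the fallen and 36.2% of the uncalled mitotic genes. There the medians were -0.63 with a CHR and -0.41 without, and among fallen genes -1.32 and -1.33. In the 40 windows of p53 targets a CHR lay in 5.0% and a CCAAT box in 40.0%. A match describes the letters of the window and is not a shown binding site.

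Windows are printed for the marker genes CDC20 and ASPM and for PLK1 and CCNB2, which hold the CHR in the same place. TACC3 is also printed, as it fell about as far as CCNB2 while the window searched holds neither motif. Capitals mark CHR and CCAAT matches on either strand. CDC20 is at chr1:43358731-43359030 (plus strand), ASPM at chr1:197146620-197146919 (minus strand), PLK1 at chr16:23678639-23678938 (plus strand), CCNB2 at chr15:59104896-59105195 (plus strand) and TACC3 at chr4:1720381-1720680 (plus strand).
CDC20: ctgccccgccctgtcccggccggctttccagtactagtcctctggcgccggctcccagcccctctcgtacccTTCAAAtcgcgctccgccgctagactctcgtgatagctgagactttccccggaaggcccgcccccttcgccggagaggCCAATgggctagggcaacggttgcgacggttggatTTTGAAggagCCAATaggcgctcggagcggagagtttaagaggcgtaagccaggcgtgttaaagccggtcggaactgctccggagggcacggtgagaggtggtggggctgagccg
ASPM: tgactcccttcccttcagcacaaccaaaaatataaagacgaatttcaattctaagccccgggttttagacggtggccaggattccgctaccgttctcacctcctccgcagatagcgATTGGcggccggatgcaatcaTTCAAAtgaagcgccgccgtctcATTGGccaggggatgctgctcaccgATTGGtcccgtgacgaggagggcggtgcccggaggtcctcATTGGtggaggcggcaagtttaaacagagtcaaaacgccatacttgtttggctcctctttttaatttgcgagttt
PLK1: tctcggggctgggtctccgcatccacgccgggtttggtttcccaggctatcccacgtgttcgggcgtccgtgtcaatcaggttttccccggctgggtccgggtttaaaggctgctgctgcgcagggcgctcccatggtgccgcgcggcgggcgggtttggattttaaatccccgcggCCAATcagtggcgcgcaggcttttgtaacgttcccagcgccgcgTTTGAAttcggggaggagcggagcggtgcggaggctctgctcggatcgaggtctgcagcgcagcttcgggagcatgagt
CCNB2: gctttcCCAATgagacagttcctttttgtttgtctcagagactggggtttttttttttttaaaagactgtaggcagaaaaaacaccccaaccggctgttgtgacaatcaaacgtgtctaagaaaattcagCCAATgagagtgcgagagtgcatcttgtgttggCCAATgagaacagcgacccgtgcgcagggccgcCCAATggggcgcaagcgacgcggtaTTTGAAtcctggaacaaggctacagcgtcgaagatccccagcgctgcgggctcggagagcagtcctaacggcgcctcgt
TACC3: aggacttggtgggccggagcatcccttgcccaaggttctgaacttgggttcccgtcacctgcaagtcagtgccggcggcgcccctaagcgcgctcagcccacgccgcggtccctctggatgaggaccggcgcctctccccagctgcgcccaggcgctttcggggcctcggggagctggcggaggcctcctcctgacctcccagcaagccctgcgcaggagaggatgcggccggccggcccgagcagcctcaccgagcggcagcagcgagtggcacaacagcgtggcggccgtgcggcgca
In PLK1 and in CCNB2 the CHR begins 29 bases before the start site. In CDC20 1 CHR begins 65 bases before the start, between CCAAT boxes at 100 and 55 bases, and another lies at 178 bases. ASPM carries 1 CHR at 113 bases and 4 CCAAT boxes. Fallen genes thus ranged from windows with both elements to windows with none.

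The fall of mitotic genes was set beside a property that many of them share, transcripts rich in adenine, which was looked at after the results were known. The 775 genes in the most adenine-rich twentieth of those tested (at least 33.4% A in the longest transcript) had a median log2 fold change of -0.42, and 11.5% of them fell, against 0.01 and 1.48% in the other 14714. Of the 143 mitotic genes, 25 were in this group, among them ASPM, CENPF, CENPE, SGO2, KIF20B and TOP2A. All 25 lay below 0 and 16 fell, with a median of -1.17. Of the 118 mitotic genes outside it, 93 lay below 0 and 15 fell (12.7%), with a median of -0.43. These 15 included CDC20, PLK1, AURKB, CCNB2, BIRC5, UBE2S, PTTG1, TACC3 and MKI67. The mitotic fall was thus also present outside the most adenine-rich twentieth, with a lower median inside it. Transcripts outside it can still be rich in adenine. MKI67, at 32.8% A, lay in the next twentieth, where 29 of 774 genes fell. With GC content, adenine content and length fitted as offsets in each library, the median over the 143 genes was -0.50 and 24 fell, the calls of NDC80 and NUF2 were among those lost, and 3 kinetochore and 8 spindle genes were called. Replicates also differed in adenine-rich genes, by a median of 0.13 between untreated replicates (B minus A) and -0.22 between irradiated ones. The part of composition in the fall was not tested beyond these values.

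Several of the largest falls outside the mitotic lists were in adenine-rich transcripts. EIF5B, a translation initiation factor, had 332 and 535 CPM untreated, and 136 and 63.3 CPM after IR (log2 fold change -2.12, adjusted p = 0.0154). PPIG, a cyclophilin of splicing speckles, fell from 136 and 223 CPM to 51.6 and 24.4 (log2 fold change -2.24, adjusted p = 0.0135), the nucleosome-binding protein HMGN5 from 24.5 and 46.8 CPM to 9.19 and 4.34 (log2 fold change -2.40, adjusted p = 0.0153) and the nucleolar protein ESF1 from 79 and 142 CPM to 34.2 and 15.6 (log2 fold change -2.15, adjusted p = 0.0179). In each of these 4 genes untreated replicate B was the highest library and IR replicate B the lowest, and replicates of 1 group lay far apart. Replicate B was above A untreated and below A after IR in 194 of the 276 fallen genes outside the mitotic lists with a composition value and in 19 of the 31 fallen mitotic genes. Of all genes tested, whether they changed or not, 34.1% met this condition. The nuclear lncRNAs MALAT1, NEAT1 and KCNQ1OT1 also met it. MALAT1, the abundant RNA of nuclear speckles, had 8720 and 14475 CPM untreated, and 5248 and 1780 CPM after IR (log2 fold change -1.72, adjusted p = 0.0472), a call lost with DESeq2 (adjusted p = 0.137). NEAT1, the scaffold of paraspeckles and a known p53 target, had 1378 and 1674 CPM untreated, and 621 and 420 CPM after IR (log2 fold change -1.55, SE 0.20, adjusted p = 0.00783), and KCNQ1OT1, an imprinted antisense RNA, fell from 15.8 and 24.7 CPM to 7.15 and 2.56 (log2 fold change -2.06, adjusted p = 0.0277). PURPL, a p53-induced lncRNA, rose, with 3 counts over both untreated libraries and 33 after IR (ratio 8.98, exact 95% interval 2.82 to 45.7), and lost its call without 3 of the 4 libraries (adjusted p from 0.0770 to 0.312).

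Among the S phase lists, 2 of 18 G1/S genes fell (11.1%), 1 of 24 licensing genes (4.17%) and 0 of 29 fork genes. Over all genes tested 1.97% fell. In the G1/S list the median was 0.03 (-0.00 with upper-quartile scaling) and only E2F2 (6.54 and 7.38 CPM to 2.14 and 1.88, log2 fold change -1.79, adjusted p = 0.0137) and E2F1 (28.3 and 34.4 CPM to 13.2 and 11.2, log2 fold change -1.36, adjusted p = 0.012), activators of S phase transcription, fell. Of 24 genes for origin licensing GINS2, a subunit of the replicative helicase, fell (27.4 and 35.3 CPM to 15.6 and 14.9, log2 fold change -1.04, adjusted p = 0.0245), which came to -0.84 without untreated replicate B and -0.99 without IR replicate B. The abundant helicase subunits MCM7 (-0.80, adjusted p = 0.0267) and MCM3 (-0.68, adjusted p = 0.0375) were under the 2-fold limit, and the median of the list was -0.23. None of 29 genes of the replication fork was called (median -0.11, and -0.17 without untreated replicate A). RRM2, the S phase subunit of ribonucleotide reductase, had 132 and 122 CPM untreated, and 129 and 138 CPM after IR (log2 fold change 0.07, adjusted p = 0.778), in contrast to its p53-inducible relative RRM2B above. The fork genes ranged from -0.83 to 0.42.

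No gene of homologous recombination or the Fanconi pathway was called in 30 tested, with 3.11% called over all genes tested. At that share 0 calls do not set a list of this size apart. The median was -0.20, with 18 members below 0. In this list 1 member was lower at an adjusted p under 0.05 (edgeR) without a 2-fold change, and members ran from -1.13 to 0.48. Other settings called some of them as fallen: 1 with offsets for GC content and length, with no filter or without IR replicate A, and 2 with adenine offsets added or without IR replicate B. The median was -0.12 without IR replicate A. The end-resection factor RBBP8 (CtIP) stood at 0.02, and at -0.02 with upper-quartile scaling, and FANCI stood at 0.15. BRCA1, named after its values were seen, had 33.2 and 32.6 CPM untreated, and 21.2 and 21 CPM after IR (log2 fold change -0.64, adjusted p = 0.0544). In the end joining list RIF1, which counters resection, fell from 50.7 and 64.1 CPM to 25.1 and 25.5 (log2 fold change -1.18, adjusted p = 0.0134; -0.99 without untreated replicate B), while the Ku subunits XRCC5 (0.11) and XRCC6 (-0.26) did not pass the test. Of 18 genes of ATM and ATR signalling 3 fell, with 1 left without IR replicate B. Claspin (CLSPN), which presents CHK1 to ATR, fell from 45.4 and 68.9 CPM to 23.1 and 12.7 (log2 fold change -1.67, adjusted p = 0.019). H2AX, the histone variant phosphorylated at breaks, fell from 87 and 108 CPM to 52.4 and 40.9 (log2 fold change -1.07, adjusted p = 0.019), and RAD9A, of the checkpoint clamp, from 13.4 and 13.6 CPM to 6.74 and 5.84 (log2 fold change -1.10, adjusted p = 0.025). The last 2 rest on the limit: H2AX came to -0.89 without untreated replicate B or IR replicate B and RAD9A to -0.99 without IR replicate B, and with GC content and length as offsets they came to -0.56 and -0.98. The kinase genes ATM (0.03) and CHEK1 (-0.12), named after their values were seen, stood near 0.

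Polyadenylated transcripts of replication-dependent histones rose in 2 of 14 tested members (median 0.73), in 3 without untreated replicate A or IR replicate A and in 4 with offsets for GC content and length. H2AC6 had 8.17 and 9.68 CPM untreated, and 23.6 and 26.7 CPM after IR (log2 fold change 1.499, SE 0.20, adjusted p = 0.0079), and H2BC5 rose from 2.70 and 3.32 CPM to 9.19 and 7.63 (log2 fold change 1.48, adjusted p = 0.0192). Most copies of these genes lack poly(A) tails, and 14 of 55 listed passed the filter in this poly(A)-selected RNA. The near-identical copies can share reads, so values of single histone genes are uncertain.

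Inflammatory and secreted factors had a median of 0.51, and 2 of 24 rose. The median was 0.75 with 5 risen without untreated replicate A, 0.33 with 1 risen without untreated replicate B, 0.55 with 4 risen without IR replicate A, and 0.35 with 0 risen without IR replicate B. CXCL8, the chemokine interleukin-8, had 675 and 437 CPM untreated, and 1003 and 1482 CPM after IR (log2 fold change 1.16, SE 0.24, adjusted p = 0.0307), and PTGS2, the inducible cyclooxygenase, rose from 8.51 and 8.40 CPM to 13.8 and 23.9 (log2 fold change 1.16, adjusted p = 0.0426). CXCL8 came to 0.89 without untreated replicate B and 0.86 without IR replicate B, and PTGS2 to 0.72 without IR replicate B. AREG, an EGF receptor ligand, had 2821 and 3481 CPM untreated, and 2430 and 2085 CPM after IR (log2 fold change -0.48, adjusted p = 0.0916). None of 26 interferon-stimulated genes (median -0.05), 17 genes of the integrated stress response (-0.43), 19 NRF2 targets (0.05), 18 chaperones (0.07) or 23 genes of sterol synthesis (0.05) was called. With 3.11% of all genes tested called, 0 calls do not set lists of these sizes apart. The median of the stress response list was -0.20 without IR replicate A, and those of the interferon, chaperone and sterol lists changed sign in some settings. Of 22 immediate early genes 1 rose, with 4 risen without untreated replicate A and 5 without IR replicate A. It was FOS (16.6 and 15 CPM to 33.6 and 40.1, log2 fold change 1.22, adjusted p = 0.0141). In the epidermal list ABCA12, a lipid transporter of the skin barrier, rose from 8.85 and 8.26 CPM to 21.3 and 31.2 (log2 fold change 1.62, adjusted p = 0.0114) and the calcium-binding alarmin S100A8 fell from 103 and 153 CPM to 60.5 and 53.7 (log2 fold change -1.16, adjusted p = 0.0192; -0.83 without untreated replicate B). S100A8 also lost its call with offsets for GC content and length (-0.77) and with adenine added (-0.82). In this list 3 members fell without IR replicate A. Ribosomal protein genes lay slightly below 0 in 63 of 74 (median -0.14), with none called; without untreated replicate B the median was 0.04.

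Control cells, whose 4 libraries are separate, gave a response to the same dose that can be set beside that of RBM6-KO1. There 553 of 15412 genes were called (3.59%), of which 259 rose (1.68%) and 294 fell (1.91%). Of the 175 genes that rose in RBM6-KO1 cells and were tested in control cells, 174 were above 0 and 103 were called there (medians 1.29 and 1.19). Of the 280 that fell, 278 were below 0 and 116 were called (medians -1.44 and -1.04). These genes were selected on their RBM6-KO1 values, so the larger medians there are no test of a difference. The p53 lists had medians of 0.76 in RBM6-KO1 and 0.72 in control cells, with 16 and 19 members risen. CDKN1A had a log2 fold change of 2.02 and 1.80, and GDF15 of 2.93 and 2.62. The mitotic lists had medians of -0.53 and -0.23, with 31 and 10 members fallen. The difference between genotypes (interaction) was below 0 for 124 of the 143 mitotic genes, with a median of -0.24, and for 27 of the 54 p53 targets, with a median of -0.00. Lists of S phase and recombination had medians of similar size: licensing had 23 of 24 below 0 (median -0.36), the fork list 27 of 29 (-0.28), G1/S 17 of 18 (-0.28) and homologous recombination 23 of 30 (-0.34). Over all 16549 genes tested the median difference was -0.01, and the share below 0 was not counted. Members of 1 list are not independent, so these counts are no test of a difference.

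The difference itself did not pass the test for any gene. Of 16549 genes tested over all 8 libraries with an interaction of genotype and IR, 0 were called by edgeR, 306 had an unadjusted p under 0.05, and the smallest adjusted p was 0.99998. DESeq2's Wald test called 0 and gave an unadjusted p under 0.05 to 167. In simulated counts the edgeR test recovered 46 of 66 differences of 1.5 on the log2 scale (69.7%). Differences between genotypes can thus be missed, and 0 calls do not show equal responses. Among mitotic genes 7 had an unadjusted p under 0.05. ASPM differed by -0.91 (SE 0.37, unadjusted p = 0.0315) on the log2 scale in RBM6-KO1 cells, CENPF by -1.09 (SE 0.26, unadjusted p = 0.00167) and KIF20B by -1.54 (SE 0.42, unadjusted p = 0.00378). CDC20 differed by -0.43 (SE 0.21, unadjusted p = 0.07) and CDKN1A by 0.22 (SE 0.18, unadjusted p = 0.24). CXCL8 had a difference of 0.80 (SE 0.36, unadjusted p = 0.0484) and TNFSF9 of 0.73 (SE 0.27, unadjusted p = 0.0199).

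**Figure D3:**
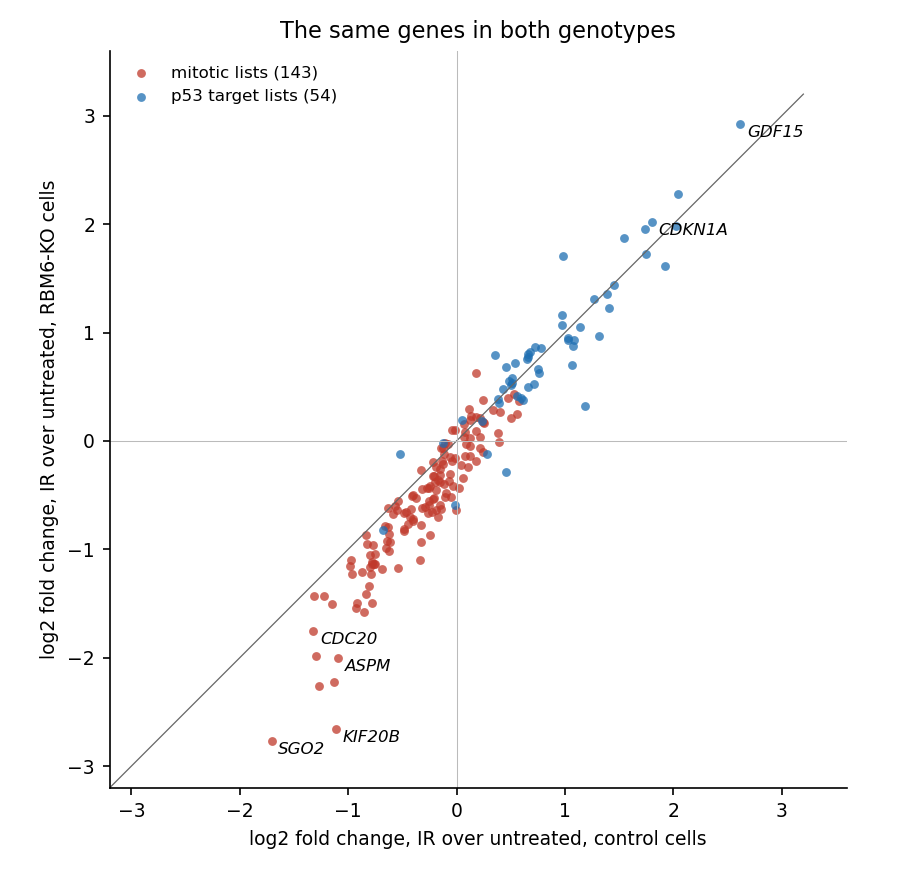
Log2 fold change after IR in control cells (x axis) and in RBM6-KO1 cells (y axis) for the tested members of the mitotic lists (red) and the p53 target lists (blue), with the line of equal change. The p53 targets scatter around the line (medians 0.72 and 0.76), and most mitotic genes lie below it (medians -0.23 and -0.53), although no single difference passed the adjusted test.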

How the data were processed

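RNA of untreated cells and of cells 12 h past a 5 Gy dose was profiled in MCF10A-Hras control cells and in RBM6-KO1. Libraries were made from TRIzol RNA with a TruSeq mRNA kit and sequenced as paired ends. The deposited table holds raw counts of reads per Ensembl gene that the authors made from reads aligned to hg38. The submitters' processing notes name STAR and DESeq2 without versions. The counting tool, annotation and strandedness are not given in the sources used here, so overlapping and antisense genes cannot be told apart. Each of the 8 columns was matched to its sample by title, which gives the replicate letters A and B. The study's methods describe its 2 replicates as biological. With 2 libraries a side, p-values measure the spread between these libraries.

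Identifiers were given symbols, lengths and composition from GENCODE v44 (57392 of 58233 matched). Genes were kept with filterByExpr, scaled with TMM and tested with edgeR 4.0.16 (quasi-likelihood, R 4.3.3, limma 3.58.1), with Benjamini-Hochberg adjustment over all genes tested in a comparison. The fit used the 4 libraries of 1 genotype, without a block. The difference between genotypes was an interaction term over 8 libraries. The standard error is the log2 fold change divided by the root of F. The steps were tested on simulated counts. DESeq2 1.42.0 was an alternative, as were other scalings, filters, call rules, a replicate block and leaving out each library. Same-lettered libraries deviated in opposite directions (r = -0.31 in RBM6-KO1 and -0.24 in control cells, across genes), so the letters were not taken as pairs.

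Genes named are the marker genes and RBM6, the 15 called genes with the smallest p in each direction whose groups do not overlap, the 10 with the largest fold change among those with at least 50 counts in each library of the higher group, up to 6 called and the 2 most abundant members of each list, the 5 with the smallest interaction p in each direction, and the 5 most abundant called genes in each direction. Others are named as chosen after their values were seen, or are the remaining called members of a list. The members and gene lists were chosen with earlier results of these data known, and lists are described by counts and medians without a set test. Promoter sequences are from RefSeq. Some genes are not reported here.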

Additional observations from a re-analysis of the deposited data

Results flagged for a closer look

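The naming rule took the 5 genes with the smallest interaction p in each direction. In 6 of them the genotypes moved to opposite sides, in values scaled over all 8 libraries. Each irradiated library lay on one side of both untreated ones in RBM6-KO1 cells and on the opposite side in control cells. The adjusted p of the difference was 0.99998 in each of the 6 genes (edgeR). Picking genes by the interaction p in the same 8 libraries favours opposite responses, so this pattern is no test of a difference between genotypes. The same rule also picked CENPF, which fell in both genotypes. The share of all genes tested with opposite responses was not counted. Values are normalized CPM, replicate A then B.

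DHRS3, a retinaldehyde reductase, had 213 and 241 CPM untreated and 199 and 146 after IR in control cells, and 86.7 and 90.2 untreated and 134 and 113 after IR in RBM6-KO1 cells. The difference in response was 0.88 on the log2 scale. TNFAIP6, an inflammation-induced hyaluronan-binding protein, had 12.2 and 9.44 and then 5.96 and 8.56 in control cells, and 22.7 and 20.3 and then 27.9 and 39.2 in RBM6-KO1 cells, a difference of 1.20. ADGRG3, an adhesion receptor, had 17.6 and 18.6 and then 10.2 and 8.82 in control cells, and 6.53 and 6.26 and then 7.59 and 6.61 in RBM6-KO1 cells, a difference of 1.08. Scaled within the 4 RBM6-KO1 libraries its groups overlapped, and its own change there was 0.13 (SE 0.23, edgeR adjusted p = 0.717).

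JAM3, a junctional adhesion molecule, had 6.02 and 6.33 and then 8.22 and 8.47 in control cells, and 1.69 and 1.43 and then 0.619 and 0.588 in RBM6-KO1 cells, a difference of -1.80. PTX3, a secreted pentraxin, had 2.58 and 1.66 and then 3.95 and 3.48 in control cells, and 7.82 and 7.42 and then 5.01 and 5.49 in RBM6-KO1 cells, a difference of -1.35. ACVRL1, a receptor of the TGF-beta family, had 4 and 3 counts and then 11 and 13 in control cells, and 19 and 9 and then 2 and 0 in RBM6-KO1 cells, a fitted difference of -5.31 that depends on the prior count. Its ratio of untreated to irradiated counts in RBM6-KO1 cells was 17.2 (exact 95% interval 4.33 to 149, counting error only).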

How the results depend on the processing

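Each result was recomputed with 1 choice changed, and no called gene among those picked by the naming rule changed direction. Uncalled genes near 0 did, among them RBBP8, BUB3, CDC25B, FANCI, RRM2 and XRCC5. The 2 libraries a side, 1 clone and totals of 15355281 to 20597570 counts limit what can be called, and the cause of the changes in number was not tested except where fewer or more genes were tested or a stricter rule applied. In RBM6-KO1 cells (485 genes, 177 higher and 308 lower) no filter gave 1011 (381 and 630), an adjusted p alone 884 (380 and 504) and glmTreat 12 (8 and 4). In control cells (553, 259 and 294) these gave 962 (483 and 479), 881 (433 and 448) and 17 (17 and 0), and upper-quartile scaling gave 446 lower. Leaving out a library, which leaves a lone sample assumed to vary like the others, gave 289 (IR replicate B) to 1563 (IR replicate A) in RBM6-KO1 cells, with 102 to 662 higher and 185 to 901 lower. In control cells it gave 287 (untreated replicate B) to 1406 (IR replicate A), with 139 to 760 higher and 148 to 646 lower. The interaction had 1 call with no filter and 0 in the other settings. The replicate block called 646 genes in RBM6-KO1 cells and 637 in control cells, and changed no named gene's call. Crossed letters, added after seeing the data, called 1222 (398 and 824) and 965 (407 and 558). The median of the mitotic genes was -0.57 with upper-quartile scaling and -0.53 to -0.47 without a library, and that of the p53 targets 0.68 to 0.87 without a library. Offsets for GC content and length took the rank correlation of log2 fold change with GC content, across genes, from -0.24 to -0.047. With these offsets 595 genes were called in RBM6-KO1 cells, and 508 when adenine content was added, of which 398 and 357 were among the 485.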

Other observations

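Beside the groups described above, IGFL2, a secreted protein of the insulin growth factor-like family, rose in RBM6-KO1 cells from 22 and 12 counts to 146 and 102 (log2 fold change 2.57, edgeR adjusted p = 0.0107). UACA, a regulator of the apoptosome, fell from 35.8 and 37.7 CPM to 14.2 and 11.6 (log2 fold change -1.51, edgeR adjusted p = 0.00662), and ANKRD36C, an ankyrin repeat gene with near-identical copies whose reads may be shared, from 15.2 and 24.9 CPM to 6.07 and 2.9 (log2 fold change -2.16, edgeR adjusted p = 0.0166). UACA and ANKRD36C belong to the most adenine-rich twentieth described above. In the list of 13 mitochondrially encoded genes the median change was -0.11 on the log2 scale, and among the 17 epithelial markers it was -0.19. Neither list held a called gene, with 3.11% called over all genes tested. Across genes, the log2 fold change in RBM6-KO1 cells had a rank correlation of 0.33 with the span of the gene and 0.27 with its exon length, and in control cells of 0.34 and 0.28. Genes are not independent replicates, and these correlations are descriptions.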
